A study of Nicotiana tabacum with 10 samples.

Results

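Pairs of neighbouring gene models with almost the same length were examined in suspension cells of tobacco line BY-2 (Nicotiana tabacum, cultivar Bright Yellow 2), which divide rapidly and need auxin in their medium. The identifier of a model was read as a scaffold, before the letter g, and an order number along it, after the letter. A pair was a member when its order numbers differed by 10, its lengths by at most 1% of the longer model, and both models had a mean of at least 1 CPM (a model's reads scaled by the total of its library) over the 10 libraries. The rule found 179 pairs of 355 models, among 69500 models and 56678 adjacent pairs in all. Controls were 7 samples grown with 0.2 mg/l of 2,4-D, a synthetic auxin, and the other 3 samples were inoculated into medium without it. All were taken 48 h after inoculation, in the dark-grown, sucrose-fed culture in its exponential phase. All samples are of 1 cell line. The control samples are described as biological replicates and the auxin-free ones only as replicates, so p-values cover the variation among these libraries, part of which may be technical. In such bulk samples fewer cells of a kind and less RNA per cell cannot be told apart.

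Auxin sustains division of these cells, and its withdrawal slows division and favours elongation. Neighbouring genes of equal length can be tandem duplicates, copies that arose side by side and often keep the same protein length, or unrelated genes that match in length by coincidence. Tobacco is an allotetraploid, so a gene also tends to have a partner from the other parental genome on another chromosome. Salmon divides a read that matches several models among them, which leaves fractional counts. The identifiers are not paired with gene names in the files, and 0 of them matched the reference table of 79372 tobacco genes used here. Models are therefore given by identifier, with no function, and no sequence is shown.

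Near-equal length was uncommon. Of the 56678 adjacent pairs, 630 (1.11%) met the length limit. In 199 of these a single model reached the CPM minimum, in 252 neither did, and 179 were kept. Exactly 32 member pairs had equal lengths, 71 differed by up to 0.5% and 76 by 0.5 to 1%. Beyond the limit, 164 expressed pairs differed by 1 to 2%, against 147 that differed by up to 1% without being equal. Model lengths ran from 237 to 3786 bases with a median of 1263, close to the 1248 of the other 23046 models in adjacent expressed pairs. Lengths were multiples of 3 for 73.0% of member models, against 83.7% of all models.

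The members covered 173 scaffolds and formed 176 separate runs, of which 174 were single pairs. The other 2 were a run of 4 models on scaffold 0001662 and a run of 3 on scaffold 0005620, so 3 models belong to more than 1 pair. The pair nearest the length limit from inside, Nitab4.5_0005904g0040.1 and Nitab4.5_0005904g0050.1, differed by 0.997% (2206 and 2184 bases). The nearest outside, Nitab4.5_0000900g0020.1 and Nitab4.5_0000900g0030.1, differed by 1.01% (497 and 492 bases). At the CPM limit, Nitab4.5_0007223g0040.1 was kept with a mean of 1.04 CPM and the pair of Nitab4.5_0002027g0050.1, with 0.989 CPM, was not.

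The models of a pair usually differed in abundance. On the TPM scale, which corrects for length, the mean levels of the pair's models differed by a median of 2.92-fold, against 3.41-fold over all 15743 adjacent expressed pairs. They lay within 2-fold in 59 pairs and over 10-fold apart in 35. Across the 179 pairs, the Spearman correlation between the levels of the first and the second model ranged from 0.209 to 0.290 among controls and from 0.196 to 0.310 without auxin. These ranges overlap (exact two-sided permutation p = 0.683 for the group means, adjusted 0.683 over 4 library measures). The median absolute log2 ratio of TPM within pairs, with 0.1 added to each TPM, was 1.70 ± 0.0417 with auxin (SD, n = 7) and 1.65 ± 0.0299 without (SD, n = 3; exact permutation p = 0.0833, adjusted 0.111).

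Member models together took a smaller part of the reads without auxin. They held 1.22% ± 0.00982 of the control reads (SD, n = 7; range 1.20 to 1.23) and 1.02% ± 0.0291 of the reads without auxin (SD, n = 3). The groups did not overlap (exact two-sided permutation p = 0.0167, the smallest this design allows, adjusted 0.0333). The membership rule used the mean over these same libraries, 7 of them controls, which favours models high in the controls. The share was not computed for other models, so the difference cannot be read as a trait of the members.

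All 355 member models were abundant enough to test. The CPM minimum is a mean over both groups, so a model below it in 1 group was kept only by being higher in the other. For such models the test gives no independent support for the direction of change. Of all 355 member models, 105 rose, 123 fell and 127 did not pass edgeR's quasi-likelihood test (adjusted p at most 0.05). The share called, 64.2%, lies near the 63.3% called among all 37034 models tested, where 32.9% rose and 30.4% fell. Rises of 2-fold or more numbered 68 and falls of that size 72, where the shares among all models were 23.1% and 20.2%. Rises of 16-fold or more numbered 16 (4.88% of all models) and such falls 6 (2.37% of all models). The groups did not overlap in 203 member models (57.2%), against 55.2% of all. The median log2 fold change was -0.03 over the members and 0.02 over all models, and the median absolute value was 0.72 and 0.88.

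Both models of a pair responded in the same direction in 56 of the 179 pairs. Of these, 23 pairs rose and 33 fell, which is 12.8% and 18.4% of the pairs, while 11.5% and 11.2% of all adjacent expressed pairs rose or fell together. In 24 pairs (13.4%) the models changed in opposite directions, against 20.2% of all adjacent pairs. In 70 pairs (39.1%) a single model passed the test, 37 of them with a rise and 33 with a fall, against 43.8% of all adjacent pairs. In 29 pairs (16.2%) neither passed, against 13.2%. Whether these shares differ from those of the other adjacent pairs was not tested. Scaling bears on the split of shared changes: with upper-quartile scaling, which moves the median log2 fold change of all models tested from 0.02 to -0.16, 16 pairs rose and 41 fell together.

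**Figure D1:**
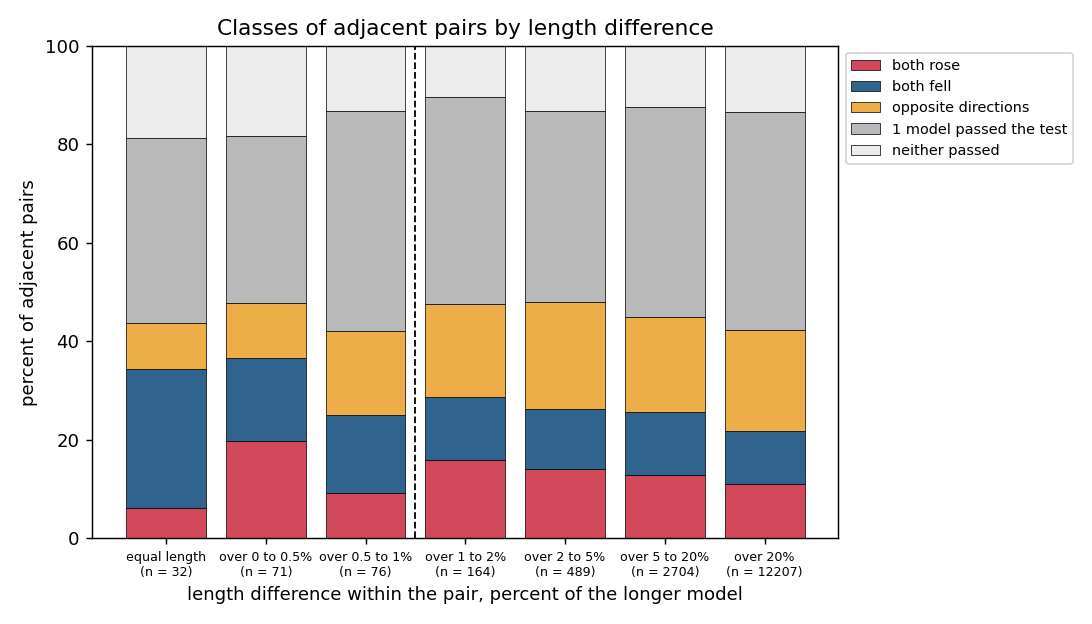
Percent of adjacent pairs with both models at 1 CPM or more (vertical axis) in each class of response, by length difference within the pair (horizontal axis), with the number of pairs under each bar; bars left of the dashed line are the 179 near-equal-length pairs. Shared changes (red and blue together) made up 34.4% of equal-length pairs, 36.6% of those differing by up to 0.5%, 25.0% of those at 0.5 to 1%, 28.7% at 1 to 2%, 26.2% at 2 to 5%, 25.6% at 5 to 20% and 21.8% of pairs differing by over 20%.

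The difference of response was then tested within each pair, as the change of the ratio of its models, so that library depth and composition cancel. The ratio changed in 105 of the 179 pairs (58.7%; edgeR adjusted p at most 0.05), against 64.3% of all adjacent expressed pairs. Out of all 179 pairs, 78 had a called change of at least 2-fold, 44 of at least 4-fold and 18 of at least 16-fold. Over all 15743 adjacent expressed pairs, 8846 (56.2%), 5080 (32.3%) and 1828 (11.6%) had a called change of these sizes. Of the 74 pairs not called, 27 had a 95% interval of the ratio change within 2-fold in either direction. The other 47 intervals allow a difference of 2-fold or more, so a missed threshold does not show an equal response. The groups did not overlap in the ratio in 92 pairs (51.4%), against 56.4% of all adjacent pairs.

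Diverging ratios occurred in every class. All 24 opposite pairs were called, as were all 3187 among all adjacent expressed pairs. The ratio was called in 48 of 70 pairs with a single model called (5025 of 6898 among all adjacent pairs) and in 3 of 29 with neither (198 of 2073). Among shared changes it was called in 12 of 23 rising pairs (897 of 1818) and 18 of 33 falling pairs (811 of 1767). The median absolute difference between the log2 fold changes of the pair's models was 0.90, with the middle 50% of pairs between 0.49 and 1.94. Over all adjacent pairs the median was 1.26. The log2 fold changes of first and second models had a Spearman correlation of 0.302 over the 179 pairs and 0.0545 over all adjacent pairs, given as a description, since the pairs share the same 10 libraries.

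**Figure D2:**
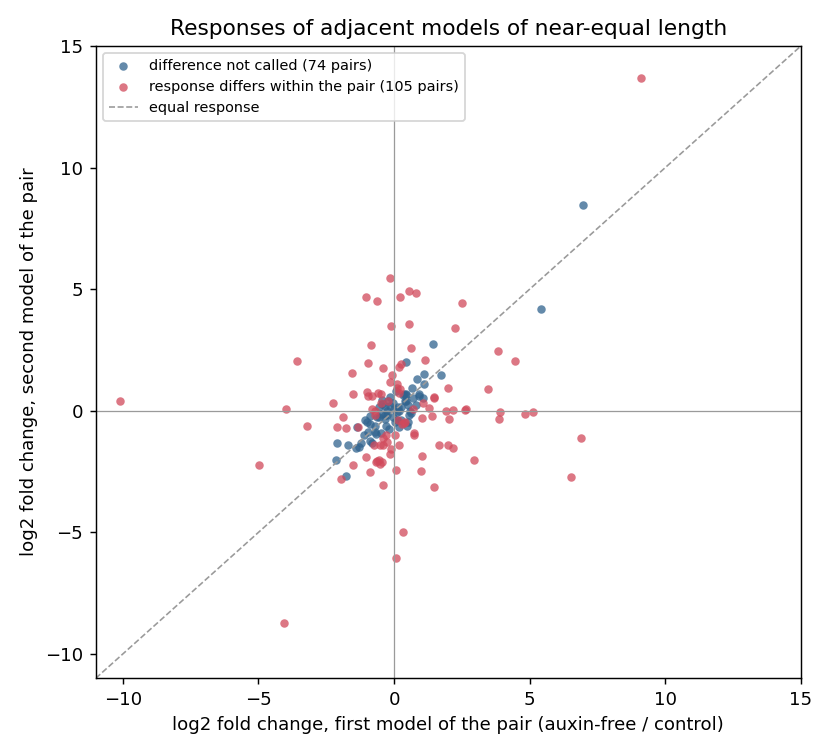
Log2 fold change (auxin-free against control) of the first model (horizontal axis) and the second model (vertical axis) of each of the 179 pairs; red points are the 105 pairs whose ratio changed and blue points the 74 not called. Blue points lie on both sides of the dashed line of equal response, some well away from it, and red points spread along both axes. The pair Nitab4.5_0000080g0240.1 and Nitab4.5_0000080g0250.1, for example, was not called with log2 fold changes of 0.44 and 1.99. A blue point is thus not shown to respond equally. The fold change of a model with no control reads depends on the fit's prior count and is not a measured size; this concerns the point at the upper right, and likewise the point at the lower left, whose second model had no reads without auxin.

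Among pairs whose models both reached a mean of 10 CPM without auxin, those with the largest shared rise had low control levels and uneven auxin-free levels. Nitab4.5_0000555g0140.1 (1380 bases) had 0.0656 to 0.967 CPM in the controls, with a median of 0.277, and 1.01, 33.3 and 13.3 CPM in auxin-free replicates 1, 2 and 3. Its neighbour Nitab4.5_0000555g0150.1 (1371 bases) had 1.14 to 3.38 CPM, with a median of 2.07, and 8.98, 74.0 and 37.0 CPM. Both models were lowest in auxin-free replicate 1 and highest in replicate 2 within that group, and every auxin-free value lay above every control. The first, with a control mean of 0.350 CPM, reached the rule's mean of 1 CPM only through the auxin-free libraries. The log2 fold changes were 5.42 (SE 0.75, edgeR adjusted p = 3.53e-05) and 4.18 (SE 0.46, adjusted p = 4.67e-06). The ratio change of -0.88 was not called (95% interval -1.98 to 0.22, edgeR adjusted p = 0.147), but was called without auxin-free replicate 1 (-1.34, adjusted p = 0.0228).

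The second pair by shared rise belongs to the run of 3 models on scaffold 0005620. Nitab4.5_0005620g0030.1 (1268 bases) had 2.80 to 4.05 CPM in the controls, median 3.22, and 17.6, 26.3 and 12.7 CPM without auxin. Nitab4.5_0005620g0040.1 (1257 bases) had 1.11 to 1.99 CPM, median 1.40, and 9.59, 63.2 and 24.8 CPM. The third model, Nitab4.5_0005620g0050.1 (1263 bases), was far more abundant, with 188 to 274 CPM in the controls, median 234, and 808, 1359 and 683 CPM without auxin. No control value of these models overlapped the auxin-free values, and auxin-free replicate 2 was highest in all of them. They rose by log2 fold changes of 2.50 (SE 0.20, edgeR adjusted p = 2.49e-07), 4.44 (SE 0.41, adjusted p = 1.01e-06) and 2.03 (SE 0.19, adjusted p = 1.38e-06). By these values the middle model rose more than either neighbour: the ratio to the first changed by 1.65 (SE 0.41, edgeR adjusted p = 0.00325), and that of the third to the middle one by -2.13 (SE 0.39, adjusted p = 0.000339). The groups overlapped in the ratio to the first. There the first model held 64.5 to 73.9% of the pair's reads in the controls. Its share was 64.6, 29.3 and 33.9% in auxin-free replicates 1, 2 and 3, so replicate 1 lay inside the control range. That call was also lost with the replicate number as a block (limma adjusted p = 0.0647).

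A pair below that minimum, chosen after its values were seen, rose further. Nitab4.5_0003810g0010.1 went from a mean of 0.0700 to 9.63 CPM and Nitab4.5_0003810g0020.1 from 0.566 to 209 CPM, log2 fold changes of 6.98 (edgeR adjusted p = 5.94e-06) and 8.45 (adjusted p = 5.59e-08) with no overlap of the groups. Both control means lay below the rule's 1 CPM, so these models were members only through the auxin-free libraries.

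The run of 4 models on scaffold 0001662, of 1102 to 1113 bases, alternated between responding and not. Nitab4.5_0001662g0030.1 had 0.181 to 0.671 CPM in the controls, median 0.389, and 12.3, 3.64 and 18.1 CPM without auxin. It reached the rule's mean of 1 CPM only through the auxin-free libraries. Nitab4.5_0001662g0050.1 had 1.27 to 3.59 CPM, median 2.89, and 37.5, 17.6 and 39.6 CPM. Both rose beyond the spread of the controls, by log2 fold changes of 4.82 (SE 0.44, edgeR adjusted p = 9.96e-07) and 3.47 (SE 0.27, adjusted p = 2.57e-07), and both were lowest in auxin-free replicate 2 within their group. Nitab4.5_0001662g0040.1, which lies between them, had 4.53 to 9.98 CPM in the controls, median 6.41, and 6.23, 6.52 and 5.59 CPM without auxin, inside the control range. Its log2 fold change was -0.12 (SE 0.22, edgeR adjusted p = 0.659). The first model, Nitab4.5_0001662g0020.1, had 0.254 to 2.42 CPM, median 0.865, and 1.74, 1.79 and 1.80 CPM, also inside the control range (log2 fold change 0.79, SE 0.50, edgeR adjusted p = 0.180), but it was called without control replicate 7 (1.13, adjusted p = 0.0305). All 3 ratios between neighbours changed, by 3.67, -4.69 and 3.52 on the log2 scale (edgeR adjusted p = 0.0010, 2.4e-05 and 8.54e-06).

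Among pairs whose models both averaged 10 CPM or more with auxin, those with the largest shared fall were short models. Nitab4.5_0000113g0070.1 and Nitab4.5_0000113g0080.1 are both 444 bases long and had nearly the same level. The first had 40.9 to 88.2 CPM in the controls, median 74.6, and 18.8, 10.6 and 17.4 CPM without auxin. The second had 37.2 to 91.4 CPM, median 78.7, and 21.7, 11.3 and 18.3 CPM. All auxin-free values lay below all controls in both models, which fell by 2.12 (SE 0.28, edgeR adjusted p = 2.48e-05) and 2.02 (SE 0.33, adjusted p = 0.000162) on the log2 scale. The first model held 50.2% ± 3.41 of the pair's reads in the controls (SD, n = 7) and 47.9% ± 1.24 without auxin (SD, n = 3), and the ratio change of 0.13 was not called (95% interval -0.30 to 0.57, edgeR adjusted p = 0.582). These models also moved together within groups, with a correlation of 0.958 between their deviations from the group means over the 10 libraries. Control replicates 3, 6 and 7 were the lowest controls in both, with 60.7, 40.9 and 49.5 CPM in the first and 67.9, 39.0 and 37.2 CPM in the second. These replicates also differed from the other controls over all models, and the part of that split in the correlation was not tested.

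In the other such pair the response was unequal. Nitab4.5_0010284g0010.1 (500 bases) had 37.2 to 84.2 CPM in the controls, median 65.1, and 18.0, 10.5 and 16.8 CPM without auxin. Nitab4.5_0010284g0020.1 (497 bases) had 10.4 to 35.3 CPM, median 21.6, and 2.82, 3.64 and 2.57 CPM. Control replicates 3, 6 and 7 were the lowest controls in both models. Neither model's groups overlapped, and they fell by 1.97 (SE 0.28, edgeR adjusted p = 4.65e-05) and 2.82 (SE 0.40, adjusted p = 4.52e-05) on the log2 scale. The ratio change was -0.75 (SE 0.29, edgeR adjusted p = 0.0381), which was no longer called without auxin-free replicate 1 (adjusted p = 0.174), without auxin-free replicate 3 (adjusted p = 0.189) or without control replicate 1, 2, 4 or 5 (adjusted p = 0.0546 to 0.0658).

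The most abundant pairs fell with little change of ratio. Nitab4.5_0002290g0030.1 (2241 bases) had 360 to 493 CPM in the controls, median 429, and 191, 119 and 181 CPM without auxin. Nitab4.5_0002290g0040.1 (2221 bases) had 315 to 397 CPM, median 350.3, and 131, 99.8 and 129.6 CPM. The groups did not overlap in either model, and the falls were 1.39 (SE 0.19, edgeR adjusted p = 3.01e-05) and 1.54 (SE 0.16, adjusted p = 2.84e-06) on the log2 scale. The ratio change of -0.14 had a 95% interval of -0.54 to 0.26 (edgeR adjusted p = 0.523). Nitab4.5_0000337g0060.1 (2835 bases) and Nitab4.5_0000337g0070.1 (2831 bases) fell by less, from 279 ± 28.4 and 314 ± 31.3 CPM in the controls (SD, n = 7) to 152 ± 30.4 and 215 ± 43.1 CPM (SD, n = 3). Their log2 fold changes were -0.87 (SE 0.17, edgeR adjusted p = 0.000507) and -0.55 (SE 0.16, adjusted p = 0.010), and the groups of the second model overlapped. The ratio change of 0.33 was not called (95% interval -0.13 to 0.78, edgeR adjusted p = 0.187).

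The widest opposite change was found in an equal-length pair of 2370 bases. Nitab4.5_0000170g0060.1 had 2.99 to 12.4 CPM in the controls, median 5.34, and 454, 694 and 536 CPM without auxin. Nitab4.5_0000170g0070.1 had 21.9 to 47.2 CPM, median 31.3, and 4.22, 3.39 and 7.32 CPM. Both pairs of groups were fully apart, in opposite directions. The log2 fold changes were 6.50 (SE 0.34, edgeR adjusted p = 7.92e-09) and -2.74 (SE 0.29, adjusted p = 4.04e-06). The first model thus held 15.5% ± 5.84 of the pair's reads in the controls (SD, n = 7) and 99.1% ± 0.432 without auxin (SD, n = 3), a ratio change of -9.36 (SE 0.48, edgeR adjusted p = 8.99e-09). Neither model had a whole count in any library.

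In the next opposite pair, Nitab4.5_0005199g0070.1 (1549 bases) was almost absent from the controls, with 0 to 0.423 CPM and a median of 0.0865, and had 16.4, 14.3 and 12.1 CPM without auxin. Nitab4.5_0005199g0080.1 (1545 bases) had 12.8 to 19.5 CPM in the controls, median 14.4, and 9.18, 4.92 and 6.62 CPM without auxin. The groups of both models were apart, and the log2 fold changes were 6.89 (SE 0.49, edgeR adjusted p = 9.81e-08) and -1.11 (SE 0.21, adjusted p = 0.000486). The first reached the rule's mean of 1 CPM only through the auxin-free libraries. The first model's share of the pair's reads went from 0.734% ± 0.941 in the controls (SD, n = 7) to 67.6% ± 5.69 (SD, n = 3).

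The other opposite pairs named by the rule kept the order of their levels. Nitab4.5_0001140g0080.1 (1082 bases) was steady among libraries of a group, with 120.3 to 140.0 CPM in the controls, median 130.4, and 84.0, 83.0 and 84.6 CPM without auxin. Nitab4.5_0001140g0090.1 (1073 bases) had 0.445 to 2.60 CPM in the controls, median 1.05, and 27.3, 23.1 and 29.5 CPM. The first fell by 0.63 on the log2 scale (SE 0.12, edgeR adjusted p = 0.000591) and the second rose by 4.504 (SE 0.34, adjusted p = 1.74e-07), with no overlap in either. The first model still held 76.0% ± 2.09 of the pair's reads without auxin (SD, n = 3), after 99.1% ± 0.549 in the controls (SD, n = 7). Nitab4.5_0000358g0160.1 (1046 bases) fell from 529 ± 113 to 130.1 ± 45.8 CPM, a log2 fold change of -2.02 (SE 0.27, edgeR adjusted p = 2.77e-05). Its neighbour Nitab4.5_0000358g0150.1 (1054 bases) rose from 1.75 ± 0.692 to 13.5 ± 2.99 CPM, a log2 fold change of 2.95 (SE 0.27, adjusted p = 9.93e-07). The share of the rising model in the reads of that pair stayed low, at 5.96, 17.3 and 8.55% in the auxin-free libraries.

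**Figure D3:**
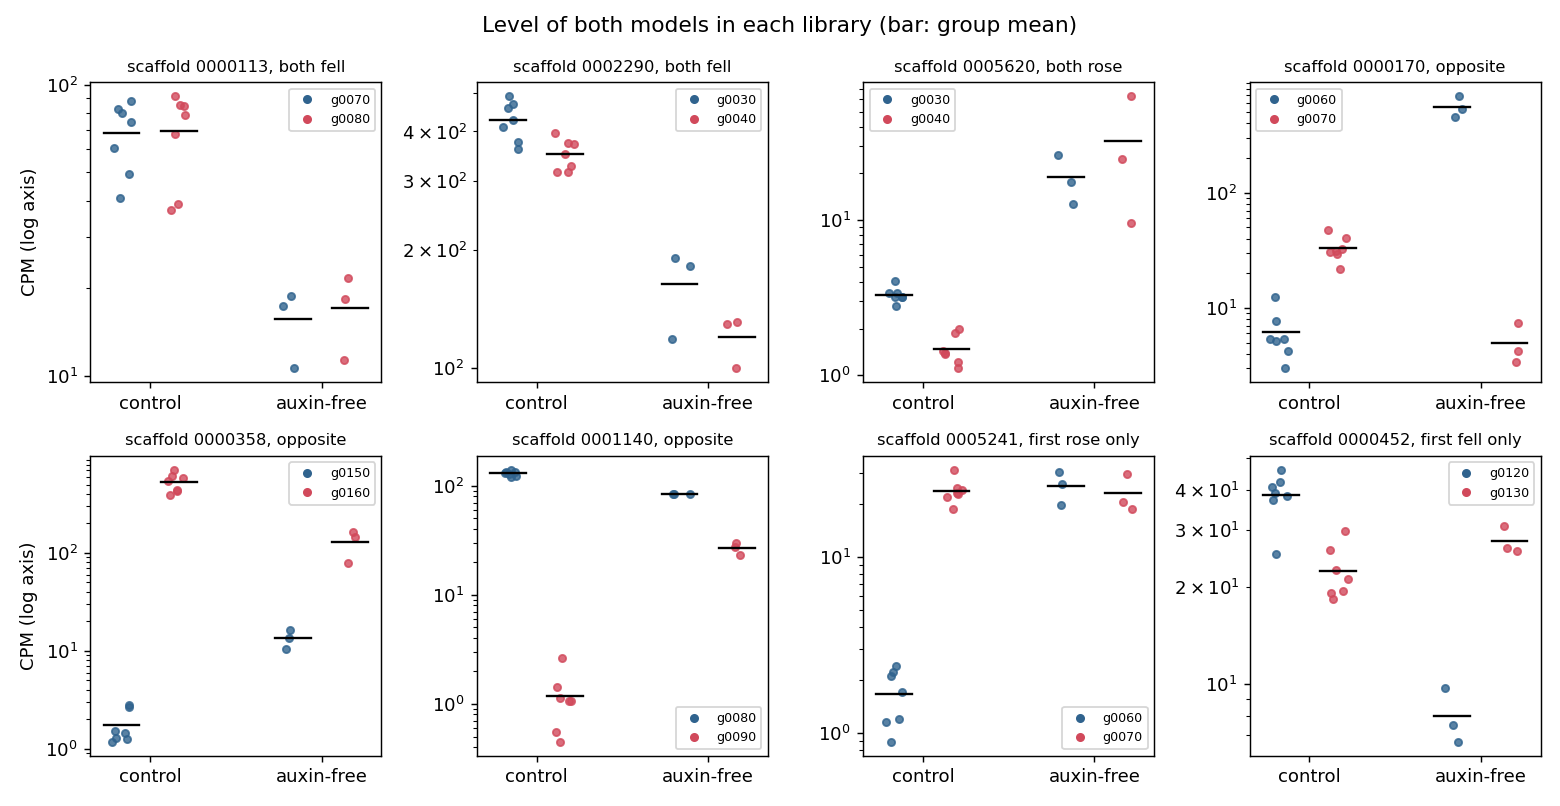
CPM on a log axis (vertical) of both models of 8 pairs in each control and auxin-free library (horizontal), blue for the first model and red for the second, with a bar at each group mean. On scaffolds 0000113 and 0002290 the models fall side by side, on scaffold 0000170 they cross, and on scaffolds 0005241 and 0000452 the first model alone passed the test.

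Pairs in which a single model passed the test had a median absolute ratio change of 1.00 on the log2 scale, against 3.08 in opposite pairs. Opposite pairs need called changes in both directions, so their larger ratio change follows at least in part from how the classes were set. Nitab4.5_0005241g0060.1 (1317 bases) had 0.889 to 2.42 CPM in the controls, median 1.71, and 30.6, 19.95 and 26.1 CPM without auxin, while Nitab4.5_0005241g0070.1 (1329 bases) had 18.9 to 31.5 CPM, median 23.1, and 18.8, 29.9 and 20.6 CPM. The first rose above all controls, with a log2 fold change of 3.91 (SE 0.25, edgeR adjusted p = 4.49e-08), and reached the level of the second, whose groups overlapped (-0.05, SE 0.18, adjusted p = 0.833). The ratio changed by -3.998 (SE 0.40, edgeR adjusted p = 1.86e-06). The second model had no whole count in any library and the first had whole counts in 6.

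In the pair of Nitab4.5_0001002g0070.1 (1164 bases) and Nitab4.5_0001002g0080.1 (1173 bases), the first had 2.82 to 4.99 CPM in the controls, median 4.19, and 51.4, 73.9 and 48.3 CPM without auxin. The second varied widely among controls, from 1.38 to 28.2 CPM, with a median of 9.51, and had 13.5, 9.34 and 11.8 CPM without auxin. It had 25.5, 26.4 and 28.2 CPM in control replicates 3, 6 and 7 and at most 9.51 CPM in the other controls. The first rose by 3.88 on the log2 scale (SE 0.19, edgeR adjusted p = 5.82e-09). The second did not pass (-0.34, SE 0.67, adjusted p = 0.682), and its wide control range bounds its response loosely. The ratio change was -3.73 (SE 0.78, edgeR adjusted p = 0.000970). In the pair on scaffold 0000452 a fall was found in place of a rise: Nitab4.5_0000452g0120.1 (861 bases) had 25.4 to 46.1 CPM in the controls, median 39.0, and 6.64, 7.48 and 9.76 CPM without auxin. It fell by 2.27 on the log2 scale (SE 0.21, edgeR adjusted p = 1.00e-06). Nitab4.5_0000452g0130.1 (855 bases) had 18.3 to 29.7 CPM in the controls, median 21.2, and 26.3, 30.8 and 25.9 CPM without auxin, and did not pass (0.31, SE 0.17, adjusted p = 0.118), though it did with offsets from the effective lengths (0.61, adjusted p = 0.0116) and without control replicate 4 (0.39, adjusted p = 0.0433). The first model was the more abundant in every control and the less abundant in every auxin-free library.

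Such an exchange of order was seen in 16 pairs (8.94%), against 11.3% of all adjacent expressed pairs: one model had the higher TPM in every control and the other in every auxin-free library. All 16 had a called ratio change, as had 1766 of the 1783 such pairs among all adjacent expressed pairs. Of the 16, 8 were opposite pairs, 7 had a single model called and 1 was a shared fall. In 115 pairs (64.2%) the same model was the higher in all 10 libraries, against 60.9% of all adjacent pairs.

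The pair with the largest rise and the one with the largest fall among all members were chosen after their values were seen, and both were of equal length. Nitab4.5_0000314g0070.1 (897 bases) had no control reads and 93.6, 123.6 and 89.3 CPM without auxin, at least 3971-fold higher against 3 reads over the whole control group (edgeR adjusted p = 6.35e-08). Its neighbour Nitab4.5_0000314g0060.1 had 1 read among all controls and 9.99, 9.78 and 7.07 CPM without auxin, so both models were near absent with auxin. Both therefore met the rule's CPM minimum only through the auxin-free libraries, which fixed the direction of their change in advance. Nitab4.5_0001119g0070.1 (1800 bases) went the other way, with 80.5 to 212 CPM in the controls, median 125, and 0, 0 and 0.321 CPM without auxin (log2 fold change -10.11, SE 0.66, edgeR adjusted p = 4.77e-08). It met the CPM minimum only through the controls. Its neighbour Nitab4.5_0001119g0080.1 stayed between 0.835 and 2.49 CPM in all libraries and did not pass (0.40, SE 0.36, adjusted p = 0.354).

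Among pairs with at least 10 CPM in the higher group of each model, same direction with the most unequal size was found in the run on scaffold 0005620 and in the pair of Nitab4.5_0001992g0090.1 (1035 bases) and Nitab4.5_0001992g0100.1 (1038 bases). The first had 8.18 to 14.2 CPM in the controls, median 11.4, and 10.1, 18.8 and 19.9 CPM without auxin. The second had 0.565 to 1.99 CPM, median 0.735, and 3.42, 18.9 and 10.2 CPM. Its control mean of 0.897 CPM lay below the rule's 1 CPM. The second rose by 3.58 on the log2 scale (SE 0.44, edgeR adjusted p = 1.32e-05) with no overlap. The rise of the first, 0.54 (SE 0.21, edgeR adjusted p = 0.0418), rested on overlapping groups and was lost without auxin-free replicate 2 (adjusted p = 0.195) or 3 (0.25), without control replicate 1, 2, 3, 4, 5 or 7 (0.0521 to 0.0754), with effective-length offsets (0.432), without a filter (0.0594) and with upper-quartile scaling (0.158). The ratio change was 2.86 (SE 0.42, edgeR adjusted p = 5.39e-05).

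Of the pairs in which neither model passed, those given here have the most abundant lower model. Nitab4.5_0005655g0040.1 (1635 bases) had 74.8 to 97.2 CPM in the controls, median 82.8, and 79.9, 60.0 and 77.3 CPM without auxin (log2 fold change -0.24, SE 0.14, edgeR adjusted p = 0.166). Nitab4.5_0005655g0050.1 (1620 bases) had 21.8 to 34.4 CPM, median 29.0, and 38.1, 28.3 and 47.9 CPM (0.40, SE 0.17, adjusted p = 0.0582). The first did pass with effective-length offsets (-0.40) and upper-quartile scaling (-0.42), and the second without auxin-free replicate 2 (0.55, adjusted p = 0.0159) or control replicate 2 (0.45, adjusted p = 0.0465). The groups overlapped in both, yet their ratio changed by 0.62 (SE 0.21, edgeR adjusted p = 0.0167), a call lost without auxin-free replicate 3 (adjusted p = 0.0930). In Nitab4.5_0000659g0030.1 (1131 bases) and Nitab4.5_0000659g0040.1 (1142 bases) the levels were 12.8 ± 2.64 and 23.4 ± 4.09 CPM in the controls (SD, n = 7) and 12.4 ± 1.70 and 19.5 ± 3.49 CPM without auxin (SD, n = 3). The ratio change of -0.22 had a 95% interval of -0.73 to 0.29 (edgeR adjusted p = 0.434).

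Fractional counts were the rule among the members. Of the 355 models, 270 (76.1%) had no whole count in any library, within a tolerance of 0.001 reads, and 12 (3.38%) had whole counts in all 10. A count of 0 was taken as whole. Of the other models in adjacent expressed pairs 76.2% had none and 5.27% had whole counts throughout. A whole count was found for 12.2% ± 1.75 of member models per control library (SD, n = 7) and 8.17% ± 0.563 per auxin-free library (SD, n = 3), without overlap (exact two-sided permutation p = 0.0167, adjusted 0.0333). Models without reads in a library add to this share, and it was not computed for other models. The difference therefore cannot be read as one of divided reads. The fraction shows that a read was divided, not with which model. In 107 pairs both models were fractional in every library, and the ratio changed in 64 of them (59.8%), against 61.7% of all adjacent pairs of that kind. In the other 72 member pairs it changed in 41 (56.9%), against 64.3% of all adjacent expressed pairs of any kind. By class, 34 of the 107 (31.8%) moved in the same direction and 16 (14.95%) in opposite ones, where 21.4% and 19.1% of all adjacent pairs of that kind did so. Of the 72, 22 (30.6%) and 8 (11.1%) did so, against 22.8% and 20.2% of all adjacent expressed pairs of any kind.

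Only 3 pairs had whole counts throughout in both models, and all were of low level. Nitab4.5_0001765g0010.1 and Nitab4.5_0001765g0020.1 (both 291 bases) had 3.38 ± 0.737 and 1.68 ± 0.432 CPM in the controls (SD, n = 7) and 3.29 ± 0.477 and 2.08 ± 0.318 CPM without auxin (SD, n = 3), and neither passed (edgeR adjusted p = 0.923 and 0.349). Nitab4.5_0000125g0450.1 (573 bases) had 0.970 to 2.58 CPM in the controls, median 1.59, and 3.28, 3.58 and 2.89 CPM without auxin, a rise of 0.93 (SE 0.28, edgeR adjusted p = 0.0108) that was lost without auxin-free replicate 2 (0.83, adjusted p = 0.0521). Nitab4.5_0000125g0460.1 (574 bases) had 0.906 to 1.71 CPM, median 1.01, and 1.94, 1.92 and 1.99 CPM, with a log2 fold change of 0.69 that did not pass (SE 0.29, adjusted p = 0.0524) but did without control replicate 2 (0.80, adjusted p = 0.0309) or 4 (0.77, adjusted p = 0.0372). Every auxin-free value lay above every control in both models of that pair. The third pair, Nitab4.5_0000003g0400.1 and Nitab4.5_0000003g0410.1, passed in neither model (edgeR adjusted p = 0.503 and 0.648).

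Division of shared reads can in principle make models move against each other from library to library; its part in these results was not tested. Deviations of log2 CPM from the group mean were correlated within each pair over the 10 libraries. The median correlation was 0.124 over the members, with the middle 50% of pairs between -0.21 and 0.55, and 0.0269 over all adjacent pairs. It lay above 0.5 in 47 pairs (26.3%; 19.1% of all adjacent pairs) and below -0.5 in 22 (12.3%; 16.2%). The pairs just outside the length limit were much alike in this. Those differing by 1 to 2% had a median of 0.189, with 28.0% above 0.5 and 6.71% below -0.5. In those differing by 2 to 5% the median was 0.135, with 24.1% above 0.5. Pairs differing by over 20%, the bulk of all adjacent pairs, had a median of -0.00052, with 17.8% above 0.5. Of the 47 pairs, 23 responded in the same direction (48.9%) and 2 in opposite ones (4.26%), against 28.3% and 14.2% of all adjacent pairs with a correlation above 0.5. Of the 22, 4 (18.2%) and 2 (9.09%) did so, against 22.8% and 20.2% of all adjacent pairs at any correlation. Each correlation rests on 10 libraries and on the same libraries in every pair, and is given without a test. Control replicates 3, 6 and 7 differed more from the other controls than among themselves. The part of this split in the correlations was not tested.

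**Figure D4:**
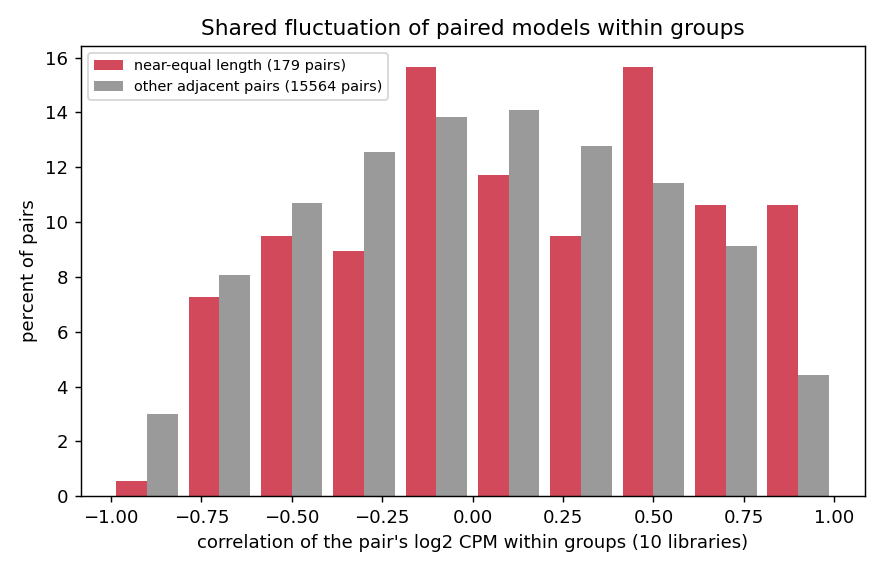
Percent of pairs (vertical axis) by the correlation of their models' log2 CPM after subtraction of the group means (horizontal axis), for the 179 near-equal-length pairs in red and the other 15564 adjacent pairs in grey. Correlations of 0.8 or more were found in 10.6% of the near-equal-length pairs and 4.42% of the others. The others include 12207 pairs that differ in length by over 20%.

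Among pairs with at least 10 CPM in both models, the strongest opposed fluctuation was -0.709, in Nitab4.5_0002612g0030.1 (1209 bases) and Nitab4.5_0002612g0040.1 (1200 bases). The first had 13.4 to 20.9 CPM in the controls, median 16.9, and 7.57, 5.44 and 8.03 CPM without auxin. The second had 19.2 to 23.9 CPM, median 23.0, and 14.1, 15.6 and 12.5 CPM. Auxin-free replicate 2 was the lowest of its group in the first model and the highest in the second. Both fell, by 1.32 (SE 0.18, edgeR adjusted p = 3.24e-05) and 0.67 (SE 0.13, adjusted p = 0.000724) on the log2 scale. The ratio change of 0.65 (edgeR adjusted p = 0.0404) was lost without auxin-free replicate 1 (adjusted p = 0.0644) or 2 (0.215), without control replicate 1, 2, 3, 4, 5 or 7 (0.05005 to 0.0643) and with effective-length offsets (0.0672).

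The next was -0.652, in Nitab4.5_0002796g0070.1 (1488 bases) and Nitab4.5_0002796g0080.1 (1494 bases). The first had 8.27 to 13.2 CPM in the controls, median 10.2, and rose to 23.6, 30.8 and 24.8 CPM (log2 fold change 1.29, SE 0.17, edgeR adjusted p = 2.23e-05). The second had 15.2 to 21.4 CPM, median 16.9, and 20.8, 17.2 and 17.9 CPM without auxin, and did not pass (0.13, SE 0.14, adjusted p = 0.442). None of these 4 models had a whole count in any library.

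At the other end, Nitab4.5_0002691g0070.1 and Nitab4.5_0002691g0080.1 (both 354 bases) had a correlation of 0.995. The first had 16.3 to 28.4 CPM in the controls, median 22.5, and 8.98, 90.5 and 35.2 CPM without auxin, and the second 14.1 to 22.6 CPM, median 17.5, and 3.75, 43.4 and 17.7 CPM. The auxin-free values of both spanned the control range, with replicate 1 below and replicate 2 above it. The rise of the first, 1.07 (SE 0.44, edgeR adjusted p = 0.0464), was lost without auxin-free replicate 2 (0.02, adjusted p = 0.963) or 3 (1.20, adjusted p = 0.0621) and without control replicate 1, 2, 3, 4, 6 or 7 (adjusted p = 0.0618 to 0.0831). The second did not pass (0.31, SE 0.45, adjusted p = 0.567), but did without auxin-free replicate 1 (0.79, adjusted p = 0.0258). Their ratio was steadier than their levels: the first model held 52.4 to 56.4% of the pair's reads in the controls and 70.6, 67.6 and 66.5% without auxin. That ratio change was -0.80 (SE 0.19, edgeR adjusted p = 0.00201).

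Summed reads of a pair do not depend on how reads were divided between its models. Of the 176 sums, 1 for each run, 54 rose, 64 fell and 58 did not pass edgeR's test, so 67.0% were called, against 63.3% of the other models in that table. Among the pairs outside longer runs, all 21 shared rises rose as a sum and all 33 shared falls fell, as the direction of their parts fixes. Of the 24 opposite pairs, 7 rose as a sum, 9 fell and 8 did not pass. Of the 67 pairs with a single model called, 24 rose, 22 fell and 21 did not pass. The 29 pairs in which neither model passed gave no called sum.

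Responses were also split by how equal the lengths were. Among the 32 equal-length pairs 2 rose and 9 fell together, 3 were opposite, 12 had a single model called and 6 none, and the ratio changed in 16 (50.0%). It changed in 40 of 71 pairs that differed by up to 0.5% (56.3%) and in 49 of 76 that differed by 0.5 to 1% (64.5%). Levels gave a further split: in the 59 pairs within 2-fold of each other in TPM the ratio changed in 27 (45.8%), against 61.8% of all adjacent pairs within 2-fold. In the 120 others it changed in 78 (65.0%), against 64.3% of all adjacent pairs at any difference of level. By abundance, it changed in 45 of the 94 pairs whose lower model had under 5 CPM (47.9%), against 64.3% of all adjacent pairs at any abundance. In the 85 with more it changed in 60 (70.6%), against 67.4% of all adjacent pairs at 5 CPM or more. These splits were not tested against each other.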

How the data were processed

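BY-2 libraries were compared between 7 control and 3 auxin-free samples. The submitters' processing notes name Trimmomatic, a read trimmer, and Salmon, a quantifier; their versions, options and index, and the genome build, were not given in the sources used here. Per the file headers, the deposited files hold the estimated count of reads, the TPM, the length and the effective length of each gene model, in bases. The members and lists were chosen with earlier results of these data known.

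After rounding, estimated counts went into edgeR 4.0.16 under R 4.3.3 (filterByExpr, minimum count 10, TMM normalisation, robust quasi-likelihood F-test, Benjamini-Hochberg adjustment over all models tested, threshold 0.05). CPM in the text is TMM-scaled, whereas the minimum of 1 CPM used plain column sums. The difference of response within a pair was tested with edgeR over all adjacent pairs at 1 CPM or more, on a table of 20 columns, both models in 10 libraries, with a term for each library, so that library scaling cancels. Its value is the change of the log2 ratio of second to first model. Standard errors were taken from the log2 change and the F statistic. Both tests were also run on simulated counts with known changes, drawn independently for each model. Those counts held no reads divided between models, so they do not show how the tests behave with divided reads. DESeq2 1.42.0 and limma 3.58.1 were alternatives.

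Named pairs followed a fixed rule: the 2 largest shared rises and shared falls, the 4 largest opposite changes, the 3 largest changes of ratio with 1 model called, the 2 largest unequal changes in 1 direction (each with at least 10 CPM in the higher group), the 2 most abundant pairs, the 2 most abundant with whole counts, the 2 with the most abundant lower model among those with neither model called, and, among pairs with a mean of at least 10 CPM in both models, the 2 with the most negative correlation within groups. The longer runs, a pair with a shared rise below that minimum, the pairs with the largest rise and fall, the highest correlation, the exchange of order and the sums by class were chosen after values were seen. Where a group had no reads, the fold used a floor of 3 reads over that whole group. Same-numbered replicates of the groups had deviation correlations of -0.0979 to 0.0702, and differently numbered ones -0.226 to 0.266. So few values cannot decide whether the numbers pair the samples, and the main tests used no pairing. Libraries held 11280031 to 23705016 estimated reads. No pair of libraries of a group agreed within sampling noise, and the lowest chi-square per degree of freedom was 3.79. The controls were not uniform. That value was 3.79 to 13.0 among control replicates 1, 2, 4 and 5 and 7.25 to 10.3 among 3, 6 and 7. Between these sets it was 16.1 to 61.7.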

Additional observations from a re-analysis of the deposited data

Results flagged for a closer look

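In 55 sets of 7 control values, 51 named models and 4 library measures, 5 held a library set apart from the other controls by a gap above Dixon's critical share of the range for 7 values, on the log2 CPM scale, where chance flags about 5% of sets. Control replicate 7 was set apart in 3 of them. Nitab4.5_0000452g0120.1 had 25.4 CPM there and 37.2 to 46.1 in the other controls (gap 0.639 of the range). Nitab4.5_0001662g0050.1 had 1.27 CPM there and 2.75 to 3.59 in the others (0.738). Nitab4.5_0001992g0100.1 had 1.99 CPM there and 0.565 to 0.839 in the others (0.702). In the first and the third of these control replicate 7 lay on the side of the auxin-free values, and in the second on the other side. Without control replicate 7 the ratio changed in 103 pairs. Nitab4.5_0002796g0080.1 had 21.4 CPM in control replicate 5 and 15.2 to 17.4 in the others (0.598). Nitab4.5_0000314g0060.1 had its only control read in control replicate 2, so the gap is the whole range (1).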

How the results depend on the processing

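Leaving out 1 library at a time gave 94 to 104 rising and 111 to 122 falling member models, 17 to 23 shared rises, 27 to 33 shared falls, 21 to 24 opposite pairs, 68 to 78 pairs with a single model called, 30 to 39 with none, and 90 to 103 changed ratios. Sums of pairs gave 50 to 56 rises and 58 to 67 falls, and the median correlation within groups ran from 0.110 to 0.182. With the replicate number as a block, 90 models rose and 104 fell, 80 ratios changed and 46 sums rose and 56 fell; all these counts stayed within 1.5 times the main ones. limma on log2 ratios also called 105 pairs, and at least 10 counts in each group left 88 calls. Effective-length offsets left 100. Changing which pairs were members moved shares beyond the 95% Wilson interval in these cases. That interval treats pairs as independent, though they share the same libraries and most of these sets overlap. It served only to mark the larger moves and is no test of them. Opposite pairs made up 19.5% of 832 pairs within 5% of length, against 13.4%. Pairs with neither model called made up 5.88% of 85 pairs at 5 CPM or more, against 16.2%. Ratio changes made up 50% of 32 equal-length pairs and 70.6% of 85 pairs at 5 CPM or more, against 58.7%. The 3 pairs with whole counts throughout gave 0% for shared changes, 0% for opposite changes, 0% for changed ratios and 66.7% for neither. For near-equal pairs 20 order numbers apart the ratio changed in 60.7% of 150 pairs. Among recomputed log2 fold changes of named models, 830 kept their call, 25 lost it and 12 gained it; among ratio changes 347 kept it, 24 lost it and 1 gained it. The block ended the call of Nitab4.5_0000337g0070.1 (adjusted p = 0.0568) and of the ratio of Nitab4.5_0005620g0030.1 and Nitab4.5_0005620g0040.1 (adjusted p = 0.0647), besides 4 calls that were also lost when single libraries were left out. No named log2 fold change or ratio change that passed the test changed sign. The cause of these differences was not tested.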
